A study of Mus musculus with 30 samples.

Results

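The genes described here were 10 targets of the ATF6 and XBP1 arms of the unfolded protein response, taken by name from a table of 48795 mouse genes: Hspa5, Hsp90b1, Pdia4, Dnajb9, Xbp1, Sdf2l1, Herpud1, Hyou1, Creld2 and Manf. All 10 passed the filter on low counts, which kept 18063 of the 33717 genes with a count in any library. RNA had been sequenced from primary cultures of dorsal root ganglion (DRG), the ganglion that holds the cell bodies of sensory neurons, prepared from C57/Bl6 wild-type mice after enrichment of neurons. Cultures labelled DN received A-Fos, a dominant negative protein that pairs with Jun and keeps the AP-1 transcription factor off DNA. GFP cultures received a GFP control, and untransduced cultures received no vector. Both constructs were carried by PHP.S, an adeno-associated virus described by the submitters as specific to sensory neurons, so cells of other types in the dish were not the intended target. The labels name no promoter for either construct. Each condition had 10 libraries, and the culture of each mouse was split over the 3 conditions. Libraries of equal replicate number were taken to come from the same mouse and form the pairs below. The sample titles form 3 culture sets: plain (replicates 1 to 3), 7DIV (replicates 4 to 6) and dated (replicates 7 to 10). The tag 7DIV stands for 7 days in vitro, and the titles of the other sets give no culture time. Whatever else differed between these sets, in date, age or batch, cannot be told apart from the set itself.

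When unfolded proteins gather in the endoplasmic reticulum (ER), 3 membrane sensors respond. ATF6 is cut to release a transcription factor, IRE1 splices Xbp1 mRNA so that it encodes an active factor, and PERK phosphorylates eIF2α and thereby favours translation of ATF4. ATF6 and spliced XBP1 drive chaperone and degradation genes, those studied here among them, and ATF4 drives genes of amino acid supply and redox balance. Which of these factors acted on a given gene in these cultures was not tested. Sensory neurons carry a large secretory load of receptors, ion channels and neuropeptides through the ER.

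Sequences upstream of the start sites were searched on both strands for the sites through which ATF6 and XBP1 act. RefSeq promoter windows (GRCm38.p6, from 250 bases before to 50 after the start) were found for 8 of the 10 genes. Hyou1 and Manf were not matched. The ER stress element ERSE (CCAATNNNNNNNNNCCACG) was present in 3 of the 8, Hspa5, Hsp90b1 and Creld2, and in 0.119% of all 32851 windows. The related ERSE-II (ATTGG, 1 base of any kind, then CCACG) was present in Herpud1 and in 0.0365% of all windows. The core TGACGTGG was in none of the 8 and in 0.676% of all windows. The AP-1 site TGANTCA, a search added after the data were seen, was present in 1 of the 8, Hspa5, and in 7.81% of all windows. The parts of ERSE alone were common: CCACG was in 7 of the 8 and in 32.8% of all windows, and CCAAT in 7 of the 8 and in 37.4%. Both lie within the ERSE, and the window of Xbp1 held neither. Upstream bases lying outside the GENCODE gene are shown for the 4 genes with a full element and for Xbp1, one of the 2 genes called below. They span chr2:34771840-34771969 (plus strand), chr10:86705510-86705694 (minus strand), chr15:88819396-88819645 (plus strand), chr8:94386179-94386428 (plus strand) and chr11:5520391-5520640 (plus strand). Capitals mark ERSE in Hsp90b1 (2 copies) and Creld2, ERSE-II in Herpud1 and the AP-1 site in Hspa5. The ERSE of Hspa5, at chr2:34772025-34772043, is given on a line of its own, because it lies between the GENCODE and the RefSeq start. These matches are descriptions of letters, and binding was not measured.
Hspa5 promoter: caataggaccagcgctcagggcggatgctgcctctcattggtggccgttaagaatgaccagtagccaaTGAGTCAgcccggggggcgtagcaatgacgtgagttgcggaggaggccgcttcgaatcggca
Hspa5 ERSE: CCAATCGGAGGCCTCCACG
Hsp90b1 promoter: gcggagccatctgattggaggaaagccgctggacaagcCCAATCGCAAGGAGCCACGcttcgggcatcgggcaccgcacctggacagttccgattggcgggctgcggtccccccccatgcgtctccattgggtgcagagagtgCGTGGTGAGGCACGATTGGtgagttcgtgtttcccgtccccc
Creld2 promoter: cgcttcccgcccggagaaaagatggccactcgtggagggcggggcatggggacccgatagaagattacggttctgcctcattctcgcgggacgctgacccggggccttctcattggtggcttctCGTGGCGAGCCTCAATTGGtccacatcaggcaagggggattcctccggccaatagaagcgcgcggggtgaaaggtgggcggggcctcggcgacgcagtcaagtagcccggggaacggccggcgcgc
Herpud1 promoter: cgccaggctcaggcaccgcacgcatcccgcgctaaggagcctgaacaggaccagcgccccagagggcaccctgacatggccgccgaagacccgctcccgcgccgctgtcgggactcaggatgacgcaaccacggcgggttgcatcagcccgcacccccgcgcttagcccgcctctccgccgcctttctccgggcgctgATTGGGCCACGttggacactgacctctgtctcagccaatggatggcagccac
Xbp1 promoter: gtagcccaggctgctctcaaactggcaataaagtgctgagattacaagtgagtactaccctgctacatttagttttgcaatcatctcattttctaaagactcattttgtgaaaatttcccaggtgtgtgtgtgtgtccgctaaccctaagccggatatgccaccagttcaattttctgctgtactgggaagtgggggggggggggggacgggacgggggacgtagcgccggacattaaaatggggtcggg

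Library totals lay between 10.7 and 39.1 M (1 M is 1e+06 counts). Untransduced replicate 4, of the 7DIV set, stood apart: it had the lowest total, against 24.1 M in the next, and its level of the nuclear RNA Malat1 was 37657 CPM, with 8316 CPM as the highest value elsewhere (GFP replicate 5). CPM are counts per 1e+06 of the TMM-scaled library total. Its summed level of the 10 genes was 991 CPM, and the median of all 30 libraries was 1987 CPM. All 16 sensory neuron markers were detected, and their summed level ran from 3484 to 5984 CPM in DN, from 3024 to 5382 CPM in GFP and from 3277 to 5713 CPM in untransduced libraries. The cultures were not of neurons alone: the summed level of 11 fibroblast markers was 4639 to 8955 CPM in DN, 4626 to 8149 CPM in GFP and 3240 to 7476 CPM in untransduced libraries. In such bulk samples, fewer cells of a type and less RNA per cell cannot be told apart.

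The 10 genes were well expressed and spanned about an order of magnitude. Per kilobase of exon, Hspa5 (BiP, the main Hsp70 chaperone of the ER lumen) and Hsp90b1 (GRP94, the ER Hsp90) stood at the top. Hspa5 averaged 163 ± 12.8 CPM per kilobase in DN, 162 ± 12.4 in GFP and 152 ± 24.2 in untransduced libraries (SD, n = 10 each). Hsp90b1 followed with 143 ± 11.6, 148 ± 21.5 and 130 ± 33.1 CPM per kilobase in DN, GFP and untransduced libraries, and its libraries overlapped those of Hspa5 in every condition. Pdia4, a protein disulfide isomerase, came next, and then Hyou1, a nucleotide exchange factor for BiP also called GRP170. Between Hsp90b1, Pdia4, Hyou1 and the gene below, the ranges of neighbours did not overlap in DN and GFP libraries. In untransduced libraries they did, through the low values of untransduced replicate 4 alone. The other 6 genes averaged between 16.6 and 27.1 CPM per kilobase, and each overlapped its neighbour in the order. Sdf2l1 and Creld2 held the lowest ranks: 17.1 and 16.7 CPM per kilobase in DN, 17.0 and 17.9 in GFP, and 16.8 and 16.6 in untransduced libraries.

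**Figure D1:**
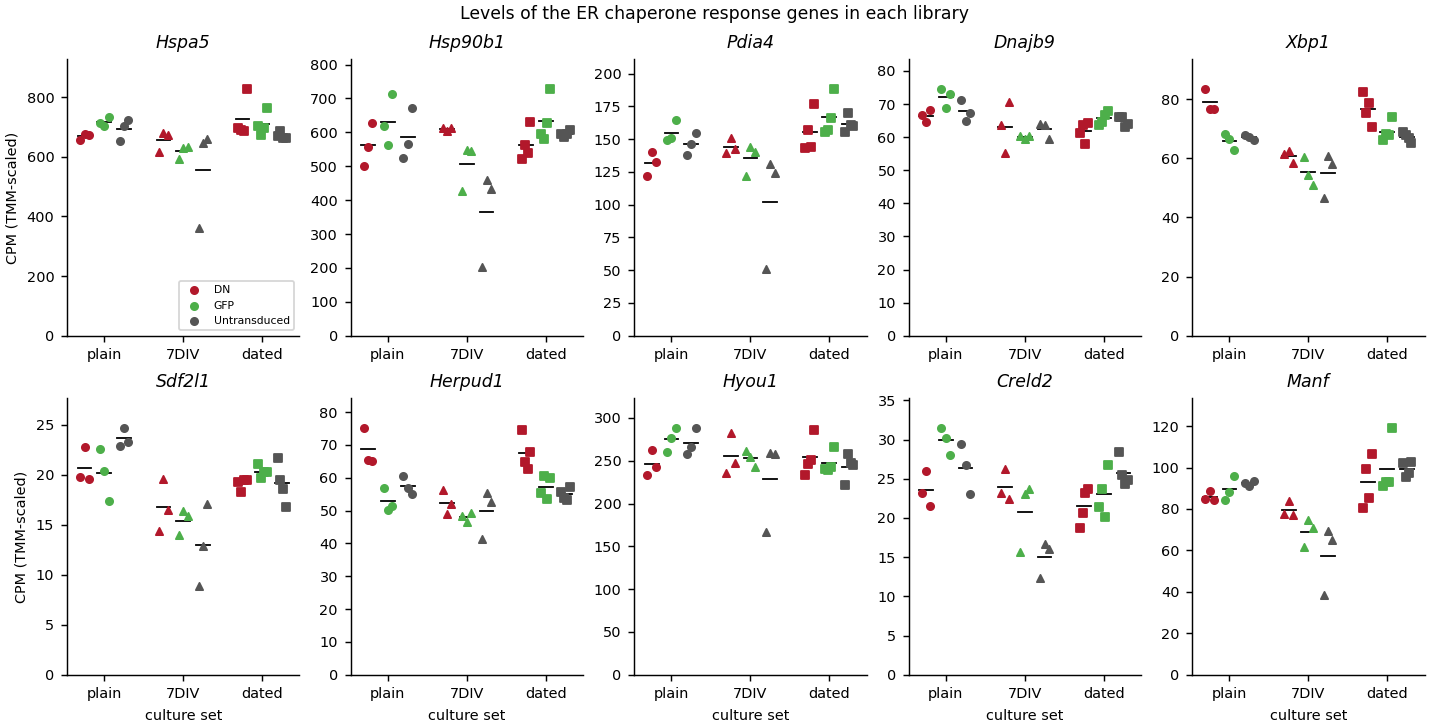
Levels of the 10 genes in CPM (y axis, linear from 0) in every library, by culture set (x axis). Red points are DN, green GFP and grey untransduced libraries, circles, triangles and squares mark the sets, and black bars are means; the low grey triangle in most panels is untransduced replicate 4, and the red points of Herpud1 and Xbp1 lie high in the plain and dated sets.

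DN and GFP cultures both received PHP.S and differed in its cargo, A-Fos or GFP. The counts do not measure AP-1 activity itself. Herpud1 and Xbp1 rose in DN cultures, by 18.4% and 13.2%, and the other 8 genes did not pass the test. Herpud1 encodes an ER membrane protein that helps assemble the machinery for ER-associated degradation, and Xbp1 encodes the factor that IRE1 activates. Gene counts do not separate spliced from unspliced Xbp1 mRNA. So 2 of 10 genes were called higher and 0 lower, beside 11.4% of all genes tested, 7.98% higher and 3.39% lower. Of all calls 70.2% were rises with TMM scaling, against 63.1% with median-ratio and 57.1% with upper-quartile scaling, and both genes were called higher under all 3. The median log2 fold change was -0.0048 over the 10 genes and -0.00086 over all genes.

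Herpud1 ranged from 49.1 to 75.2 CPM (median 64.9) in DN libraries and from 46.5 to 60.5 CPM (median 52.5) in GFP libraries. In the plain set its DN libraries had 75.2, 65.5 and 65.1 CPM, against 56.9, 50.3 and 51.5 CPM in GFP. In the dated set they had 74.6, 64.7, 62.6 and 68.0 CPM, against 55.4, 60.5, 53.5 and 59.9 CPM. The groups were apart within these sets, and DN exceeded GFP of the same replicate in 10 of 10 pairs. How many of all genes were apart in this way was not counted. In the 7DIV set the DN libraries, at 56.1, 49.1 and 51.9 CPM, overlapped the GFP libraries, at 48.4, 46.5 and 49.2 CPM. The log2 fold change over all sets was 0.24 (SE 0.05, adjusted p = 0.002 in edgeR's quasi-likelihood test with Benjamini-Hochberg adjustment).

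Xbp1 ranged from 58.5 to 83.5 CPM (median 76.0) in DN libraries and from 51.1 to 74.0 CPM (median 66.4) in GFP libraries. In the plain set the DN libraries had 83.5, 76.7 and 76.5 CPM, against 68.4, 66.6 and 63.0 CPM in GFP. In the other sets the ranges overlapped, with 58.5 to 62.4 CPM in DN and 51.1 to 60.5 CPM in GFP of the 7DIV set, and 70.5 to 82.5 CPM in DN and 66.2 to 74.0 CPM in GFP of the dated set. DN was higher in 9 of 10 pairs, and the log2 fold change was 0.18 (SE 0.05, adjusted p = 0.0116 in edgeR). This call was lost when replicate 2 was left out (adjusted p = 0.0609 in edgeR) and when replicate 3 was (adjusted p = 0.0793).

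The chaperones themselves showed no called difference over all sets. Some of their intervals still reached changes as large as those called, as the upper bound of Hsp90b1 and the lower bounds of Pdia4 and Creld2 did. Hspa5 ranged from 615 to 828 CPM (median 679) in DN and from 594 to 763 CPM (median 700) in GFP libraries, a log2 fold change of 0.01 with a 95% interval from -0.12 to 0.14. Hsp90b1 ranged from 499.9 to 631 CPM in DN and from 427 to 729 CPM in GFP, a log2 fold change of -0.02 (-0.23 to 0.20). For Pdia4 the interval was -0.27 to 0.12, and for Hyou1 -0.15 to 0.09. The co-chaperones Dnajb9 (ERdj4, a J protein that binds BiP) and Sdf2l1 (a partner of ER J proteins) had intervals of -0.13 to 0.03 and -0.15 to 0.18. Creld2, a secreted and ER-resident protein with disulfide isomerase activity, had -0.28 to 0.14, and Manf, a trophic factor retained in the ER with BiP, had -0.14 to 0.17. No upper bound among these 8 genes exceeded 0.20, that of Hsp90b1, and the lowest lower bound was that of Creld2.

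Against untransduced cultures the same 2 genes were called, beside 13.2% of all genes, 8.94% higher and 4.25% lower. This comparison shares its DN libraries with the one above and is no independent repeat of it. Herpud1 ranged from 41.3 to 60.6 CPM (median 55.3) in untransduced libraries, and the log2 fold change of DN was 0.22 (SE 0.05, adjusted p = 0.0061 in edgeR, higher in 8 of 10 pairs). Xbp1 ranged from 46.7 to 69.0 CPM (median 66.5) in untransduced libraries, and its log2 fold change was 0.19 (SE 0.05, adjusted p = 0.00788 in edgeR, higher in 10 of 10 pairs). All groups overlapped over the 3 sets, and both calls held without untransduced replicate 4. Between GFP and untransduced cultures edgeR called 0 of the 10 genes and 0% of 18063 genes, with 373 genes at an unadjusted p under 0.05. DESeq2 called 0 genes as well, with 531 at an unadjusted p under 0.05. Without any effect, this cut would mark more genes on average than either number. The 0 calls therefore do not show that the vector had no effect. The 10 log2 fold changes of GFP against untransduced ran from -0.03 (Herpud1) to 0.20 (Hsp90b1, 95% interval -0.01 to 0.42).

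Some marker genes of cell types were called in DN as well. Against GFP, 8 of 16 sensory neuron markers were higher and 3 lower, beside 7.98% of all genes higher and 3.39% lower. Of the other markers tested, 0 of 12 satellite glia markers were higher and 1 lower, 0 of 12 Schwann cell markers higher and 2 lower, and 0 of 11 fibroblast markers called. Of 11 macrophage markers 0 were higher and 1 lower, and of 10 endothelial markers 1 was higher and 1 lower. Called shares were below the 11.4% of all genes for satellite glia (8.33%), macrophage (9.09%) and fibroblast markers (0%). They were above it for Schwann cell (16.7%), endothelial (20.0%) and sensory neuron markers (68.8%). No listed marker that passed the filter was at 0 in all libraries, and Dpt, Aif1, Cldn5 and Ly6c1 did not pass it. The median summed level of satellite glia markers was 1355 CPM in DN and 1483 CPM in GFP over all sets. In the plain set the summed level ran from 1354 to 1634 CPM in DN and from 1711 to 1858 CPM in GFP, without overlap. The 7DIV medians were 1125 CPM in DN and 1090 CPM in GFP, and the dated medians 1358 and 1483 CPM. Sensory neuron markers of the plain set summed to 4154 to 5368 CPM in DN and 3372 to 3697 CPM in GFP. Their ranges overlapped in the other sets. For Schwann cell markers the median was 1256 CPM in DN and 1518 CPM in GFP of the plain set. It was 1714 CPM in DN and 1594 CPM in GFP of the 7DIV set, and 2254 and 2278 CPM in the dated set. The part of cell composition in the Herpud1 and Xbp1 results was not tested.

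**Figure D2:**
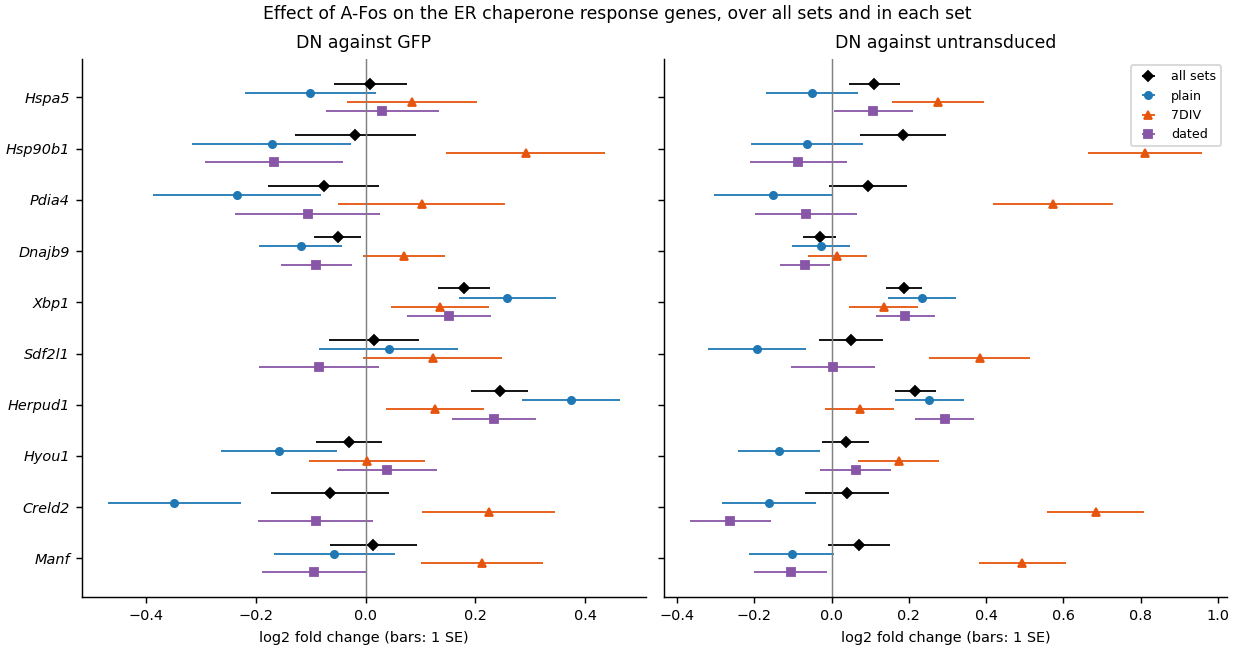
Log2 fold changes of DN against GFP (left) and against untransduced (right) on the x axes for each gene on the y axis, with bars of 1 SE. Black diamonds pool the sets and coloured symbols are the plain, 7DIV and dated sets; with all libraries Herpud1 and Xbp1 lie right of 0 in every set on both sides (the 7DIV values against untransduced are -0.07 and -0.01 without untransduced replicate 4), and the 7DIV symbols of Hsp90b1, Pdia4, Creld2 and Manf lie far right against untransduced cultures.

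By culture set, Herpud1 and Xbp1 kept one direction in DN against GFP, and several chaperones did not. DN against GFP gave log2 fold changes of Herpud1 of 0.37 in the plain set (SE 0.09, adjusted p = 0.00845 in edgeR), 0.13 in the 7DIV set (SE 0.09) and 0.23 in the dated set (SE 0.08). For Xbp1 they were 0.26, 0.14 and 0.15 in the plain, 7DIV and dated sets. Herpud1 in the plain set was the only member called, 1 of 10 beside 8.00% of all genes, and this call was lost when replicate 1, 2 or 3 was left out. In the 7DIV set 0 of 10 were called beside 2.61%, and in the dated set 0 of 10 beside 3.16%. Leaving out untransduced replicate 4, the fit had a smaller error (0.07 in place of 0.15 for Pdia4 in the plain set) and called more, 15.8%, 9.77% and 6.90% of all genes for plain, 7DIV and dated cultures. Pdia4 and Creld2 then fell in the plain set (log2 fold changes -0.23 and -0.35, adjusted p = 0.0139 and 0.0348 in edgeR), Xbp1 and Herpud1 rose there, Hsp90b1 rose in the 7DIV set and Herpud1 in the dated set.

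In the plain set several chaperones had lower values in DN. Pdia4 had 122, 141 and 133 CPM in DN, against 149, 151 and 164.5 CPM in GFP libraries of that set. Creld2 had 23.1, 26.0 and 21.5 CPM in DN, against 31.5, 30.2 and 28.1 CPM in GFP. Both genes were apart between DN and GFP in the plain set, with every DN library below every GFP library. So were Hspa5 (at most 677 CPM in DN, at least 705 CPM in GFP) and Dnajb9 (at most 68.2 and at least 68.8 CPM). The share of all genes with such a gap was not counted. Fitted on the plain set alone, edgeR called 6 members, with Hsp90b1, Pdia4, Hyou1 and Creld2 lower and Xbp1 and Herpud1 higher, beside 22.5% of all genes.

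Hsp90b1 lay on different sides of 0 in the sets. In the 7DIV set it had 613, 605 and 611 CPM in DN, against 427, 548 and 546 CPM in GFP libraries. In the plain set it had 499.9, 558 and 626 CPM in DN, against 619.8, 563 and 713 CPM in GFP, and in the dated set 521, 562, 538 and 631 CPM in DN, against 594, 581, 628 and 729 CPM in GFP. DN was thus above GFP in 3 of 3 pairs of the 7DIV set and in 0 of 3 and 0 of 4 pairs of the plain and dated sets. The log2 fold changes were 0.29 in the 7DIV set (SE 0.14), -0.17 in the plain set (SE 0.14) and -0.17 in the dated set (SE 0.13). The test of the difference between sets called 0 of the 10 genes beside 0.365% of all genes, with Hsp90b1 at an adjusted p of 0.517 and Creld2 at 0.319 in edgeR. Without untransduced replicate 4 it called 1 of 10, Hsp90b1 (adjusted p = 0.0158), beside 3.00% of all genes, and without all 3 libraries of replicate 4 it called 0. Of the exon bases of Hsp90b1, 632 of 4032 are shared with other annotated genes, among them 1810014B01Rik on the other strand, and strandedness is not given in the sources used here, so reads there cannot be told apart. The same holds for 326 of 3524 exon bases of Manf.

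Against untransduced cultures, DN called 0 of 10 genes in the plain set beside 8.58% of all genes, 5 in the 7DIV set beside 22.3% and 1 in the dated set beside 3.13%. The 5 of the 7DIV set were all higher: Hsp90b1 (log2 fold change 0.81), Creld2 (0.68), Pdia4 (0.57), Manf (0.49) and Sdf2l1 (0.38). Creld2 had 23.2, 26.2 and 22.4 CPM in DN, against 12.4, 16.6 and 16.03 CPM in untransduced 7DIV libraries, a difference seen in every library. Without untransduced replicate 4, Hsp90b1 (0.51, adjusted p = 0.00042 in edgeR), Creld2 (0.66, adjusted p = 0.00219) and Manf (0.29, adjusted p = 0.028) were still called, beside 12.2% of all genes, and Pdia4 and Sdf2l1 were not. A fit of the 7DIV set alone called 0 of the 10 beside 0.0106% of all genes, with adjusted p from 0.11 (Creld2) to 0.289 (Sdf2l1) for these 5 in edgeR. GFP against untransduced, which shares the untransduced libraries, gave log2 fold changes in the 7DIV set of 0.52 for Hsp90b1, 0.46 for Creld2, 0.47 for Pdia4, 0.28 for Manf and 0.26 for Sdf2l1. With all libraries none of these was called (adjusted p from 0.114 to 0.321 in edgeR), beside 0.288% of all genes. With all 3 libraries of replicate 4 left out, GFP against untransduced called 2 genes in this set, Hsp90b1 and Creld2. DN against untransduced called the same 2 in that setting. The share of all genes called there was not recorded. Herpud1 and Xbp1 had 0.07 and 0.13 in DN against untransduced of the 7DIV set, and -0.07 and -0.01 with untransduced replicate 4 left out. DN exceeded the untransduced library of the same replicate there in 1 of 3 pairs for Herpud1 and 3 of 3 for Xbp1. The 1 gene of the dated set was Herpud1 (0.29, adjusted p = 0.0367 in edgeR), a call kept without replicate 4 or 6 and lost when any other replicate was left out.

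The control cultures, GFP and untransduced, showed how far the 10 genes varied with no inhibitor present. In the 7DIV set 9 of 10 were lower than in the plain set, all but Hyou1, beside 47.2% of all genes called in either direction. Creld2 fell furthest, by 0.66 on the log2 scale (SE 0.10), then Sdf2l1 by 0.62 (SE 0.11), Manf by 0.52 (SE 0.10) and Hsp90b1 by 0.50 (SE 0.13). The dated set differed from the plain set in 0 of 10 beside 28.4% of all genes. From the 7DIV set it differed in 8 of 10, all higher, beside 56.5%, with Manf at 0.65 (SE 0.09) and Hsp90b1 at 0.51 (SE 0.12). Dnajb9 and Hyou1 were not called there. Herpud1, without untransduced replicate 4, was no longer called in the 7DIV set against plain (8 of 10 beside 44.5% of all genes), and Hyou1 was called lower in the dated set against plain (1 of 10 beside 38.9%).

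These fits hold 2 control libraries of each mouse, which are not independent, so each condition was also fitted alone. With GFP libraries, 5 genes were lower in the 7DIV than in the plain set (Dnajb9, Xbp1, Sdf2l1, Creld2 and Manf), beside 29.1% of all genes, and with untransduced libraries 3 were (Sdf2l1, Creld2 and Manf), beside 25.2%. Sdf2l1, Creld2 and Manf were thus called in both. Manf had 61.8, 74.5 and 70.8 CPM in 7DIV and 84.5, 88.2 and 96.0 CPM in plain GFP libraries, and 38.3, 69.4 and 64.8 CPM in 7DIV and 92.4, 91.2 and 93.6 CPM in plain untransduced libraries. Every 7DIV control library of Manf lay below every plain one. Creld2 had 15.6, 23.1 and 23.7 CPM in 7DIV and 31.5, 30.2 and 28.1 CPM in plain GFP libraries. Cell type markers moved with the sets too, over all 3 conditions. The median summed level of satellite glia markers was 1090 CPM in 7DIV and 1738 CPM in plain libraries, that of endothelial markers 61.1 CPM in 7DIV and 22.7 CPM in plain libraries, and that of sensory neuron markers 5225 CPM in 7DIV and 3697 CPM in plain libraries. Their part in the set differences was not tested.

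**Figure D3:**
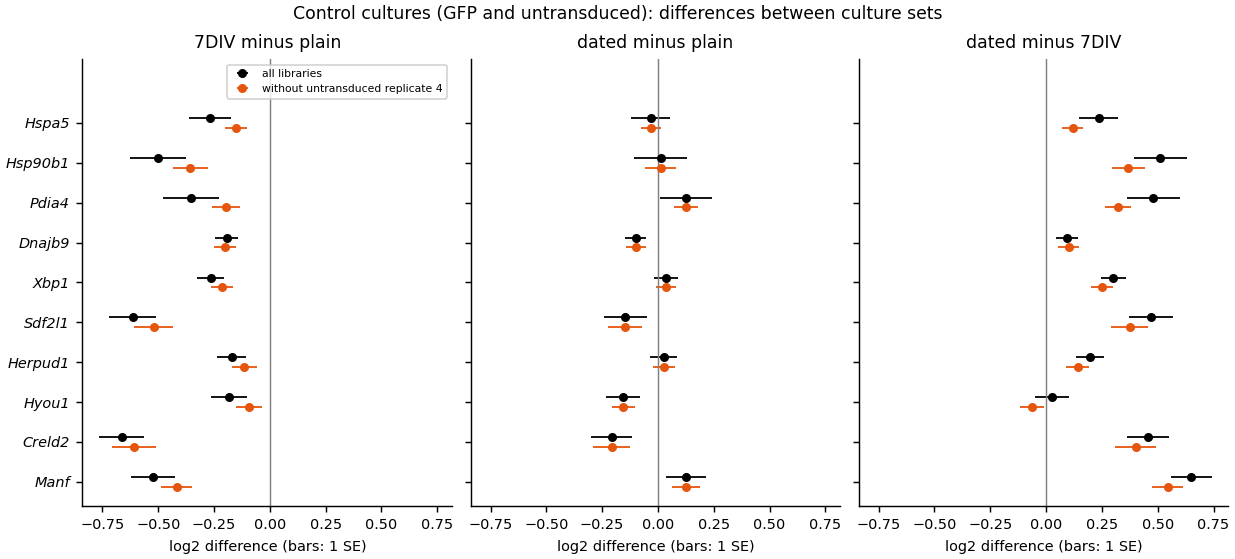
Log2 differences between culture sets in the control cultures (x axes) for each gene (y axis), with bars of 1 SE. Black points use all libraries and orange points leave out untransduced replicate 4. Most genes lie left of 0 in 7DIV minus plain, with Creld2, Sdf2l1, Manf and Hsp90b1 farthest out. Most lie right of 0 in dated minus 7DIV, with Manf and Hsp90b1 farthest among black points and Manf and Creld2 among orange points.

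Across libraries the 10 genes moved together in part. Over 30 libraries the 45 pairwise Pearson correlations of log2 CPM had a median of 0.59, with Hsp90b1 and Pdia4 highest at 0.94. Without untransduced replicate 4 the median was 0.36, Xbp1 and Herpud1 were highest at 0.86, and Hsp90b1 and Pdia4 had 0.79. The points share mice and culture sets, so these values are descriptions. The genes outside the 10 whose level followed their standardised mean most closely over 30 libraries were Ssr2 (r = 0.97), a subunit of the translocon-associated protein complex, then Prnp, Gas6, Ppib, Bsg, Eef1a1, Rcn3 and Lamp1. Ppib is a peptidyl-prolyl isomerase of the ER. For Lamp1, the eighth, r was 0.96, and over the 29 libraries without untransduced replicate 4 the r of these 8 genes lay between 0.90 and 0.94.

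With all libraries, few genes of wider ER lists changed in DN against GFP, and a list of ATF4 targets changed in most of its members. Of 32 other ER folding genes 2 were higher and 0 lower, with 1 higher under median-ratio scaling. They were Ero1l, the oxidase that drives disulfide formation, at 152 ± 30.1 CPM in DN and 109 ± 7.54 CPM in GFP (SD, n = 10 each), and Creld1 (log2 fold change 0.18). Of 25 genes of ER-associated degradation 1 was higher, Nfe2l1 (0.23), with 0 under median-ratio scaling. Without untransduced replicate 4, 5 were higher, beside 17.9% of all genes called in either direction. Of 29 genes of ER translocation and export 1 was higher, Arfgap3 (0.23), a regulator of coat proteins of vesicles. With all libraries, each of these shares is below the 11.4% of all genes.

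Of 20 sensors and regulators of the unfolded protein response, Atf6 alone was called, with a log2 fold change of 0.18 (SE 0.04, adjusted p = 0.00438 in edgeR, higher in 10 of 10 pairs), and under median-ratio scaling 1 gene was also lower. With untransduced replicate 4 left out, 2 were higher and 1 lower, beside 17.9% of all genes called in either direction. Atf6 averaged 130 ± 10.2 CPM in DN and 115 ± 11.9 CPM in GFP. The sensor genes Ern1 (IRE1) and Eif2ak3 (PERK) had 0.02 and -0.13, with adjusted p = 0.872 and 0.0773 in edgeR.

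The list of the PERK and ATF4 arm had 20 of 30 genes higher and 0 lower, beside 7.98% of all genes higher and 3.39% lower. Its median log2 fold change was 0.33. Slc7a5, an amino acid transporter subunit, averaged 205 ± 42.3 CPM in DN and 109 ± 8.79 CPM in GFP. Chac1, which degrades glutathione, averaged 37.6 ± 9.11 CPM in DN and 22.7 ± 5.44 CPM in GFP. Slc7a1, a transporter of basic amino acids, averaged 315 ± 45.8 CPM in DN and 202 ± 21.5 CPM in GFP, and Shmt2, an enzyme of mitochondrial serine metabolism, 88.8 ± 12.8 CPM in DN and 66.4 ± 6.85 CPM in GFP. All 4 were higher in 10 of 10 pairs. Atf4 itself rose by a log2 fold change of 0.22 and Ddit3 (CHOP) by 0.44, with adjusted p = 0.00356 and 0.00109 in edgeR. Whether this list differed from the 10 genes was not tested. Against untransduced cultures the list had 17 of 30 higher, beside 8.94% of all genes higher.

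Cytosolic heat shock genes were mixed, with 4 of 22 higher and 1 lower, beside 7.98% of all genes higher and 3.39% lower. Under median-ratio scaling 1 was higher. Hspb1, a small heat shock protein, averaged 16.3 ± 4.97 CPM in DN and 30.9 ± 7.74 CPM in GFP, a log2 fold change of -0.93 (SE 0.13, adjusted p = 2.31e-05 in edgeR). Dnaja1, an Hsp40 co-chaperone, was the called rise with the smallest p, with a log2 fold change of 0.28. A further list of secretory cargo of sensory neurons had 8 of 22 higher and 4 lower, beside the same shares of all genes.

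**Figure D4:**
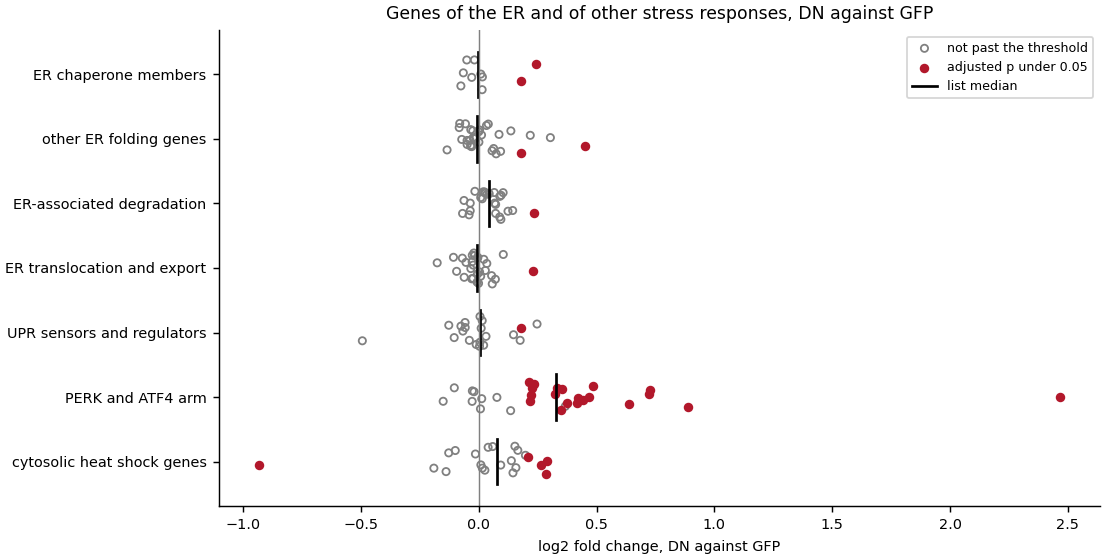
Log2 fold changes of DN against GFP (x axis) for every tested gene of 7 lists (rows). Filled red points passed an adjusted p of 0.05, open grey points did not, and black bars are list medians; the ER rows gather around 0 with 2 filled points among the 10 genes, while 20 filled points of the PERK and ATF4 row lie right of 0.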

How the data were processed

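The values were raw, whole-number counts of reads for each Ensembl gene in 30 libraries, deposited by the authors and made with bcl2fastq 2.17, STAR and HTSeq on GRCm38 (mm10), per the submitters' processing notes. Kits were RNeasy Micro and TruSeq, per the labels. Symbols and exon lengths came from GENCODE M21. Counts were filtered with filterByExpr by condition, scaled with TMM factors and fitted in R 4.3.3 with edgeR 4.0.16 as a robust quasi-likelihood model with condition and replicate number as a block. Adjusted p-values (Benjamini-Hochberg, threshold 0.05) cover all 18063 genes. The block follows the series design, which divides each mouse's culture between conditions. That equal replicate numbers mark the same mouse was assumed. Residuals of same-number pairs correlated above 0.1 in 8 of 30 cases (median r 0.063). SE was the fold change over the square root of F, and 95% intervals are 1.96 SE. Log2 CPM carried a prior count of 2. Effects by set came from 1 model with a term for each set, and control sets from 9 group means. Code was tested on simulated counts with less spread than these data and without a library of outlying expression. That test checks the code and not the error rates of the fits. Alternatives included DESeq2 1.42.0 and other scalings, filters and left-out libraries. Members and lists were chosen with earlier results of these data known. Genes named from lists were up to 4 a list with the smallest p among those called, and Atf4, Ddit3, Ern1 and Eif2ak3 were picked with their values known. The deposited repeat table was not used.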

Additional observations from a re-analysis of the deposited data

Results flagged for a closer look

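Of 60 groups of 4 to 10 libraries, 10 held a value whose gap to its neighbour was large for the group's range (Dixon's test at 95%), where chance alone would mark about 5% of groups. Of these, 5 were low values of untransduced replicate 4 among the 10 untransduced libraries: Hspa5 at 360 CPM, Hsp90b1 at 202 CPM, Pdia4 at 50.7 CPM, Xbp1 at 46.7 CPM and Herpud1 at 41.3 CPM. Hspa5 was high in DN replicate 10, at 828 CPM, both among all DN libraries and among those of the dated set. Within the dated set, Sdf2l1 was low in DN replicate 8 (18.3 CPM), and Hyou1 (266 CPM) and Manf (119 CPM) were high in GFP replicate 10. The effect of DN against GFP on Hsp90b1 differed between culture sets when untransduced replicate 4 was left out (edgeR interaction test, adjusted p = 0.0158), and with all libraries the adjusted p was 0.517.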

How the results depend on the processing

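Herpud1 and Xbp1 were called in DN against GFP under every alternative except the following, which called Herpud1 only: no replicate block and no set term (1 gene), no filter on low counts (1 gene), and leaving out replicate 2 or 3 (range over left-out replicates 1 to 2). With the set as a covariate and no replicate block, 2 were called. Against untransduced cultures 0 were called with no replicate block and no set term, and 1 with no filter. Of 540 alternative log2 fold changes, 0 called values reversed, 7 lost their call, and 45 that were uncalled in both lay on the other side of 0.

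By set, separate fits called 6 genes beside 22.5% of all genes (plain, DN against GFP), 4 beside 24.4% (plain, DN against untransduced) and 0 beside 0.0106% (7DIV, DN against untransduced). Without untransduced replicate 4 the counts for DN against GFP were 4 (plain), 1 (7DIV) and 1 (dated), for DN against untransduced 2, 3 and 2, and for the difference between sets 1. Leaving out each replicate in turn, chosen after seeing the data, gave for DN against GFP 0 to 4 (plain), 0 (7DIV) and 0 to 2 (dated), and for DN against untransduced 0 to 2 (plain), 2 to 6 (7DIV) and 0 to 2 (dated). For GFP against untransduced in the 7DIV set it gave 0 to 2, and for the difference between sets 0 each time. In control cultures it gave 7 to 10 (7DIV minus plain), 0 to 3 (dated minus plain) and 6 to 8 (dated minus 7DIV). GFP libraries alone, also added later, called 5, 1 and 5, and untransduced libraries alone 3, 0 and 3. Without untransduced replicate 4, dated minus plain had 1. The cause was not tested.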
